A study of Arabidopsis thaliana with 305 samples.

Results

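The transcripts of Arabidopsis thaliana leaves 0.5 h after infiltration with bacteria carrying an empty vector (EV) were compared with those of leaves that had not been infiltrated (T0). All plants were of the accession Col-0, the wild type of the study. The samples were chosen by label alone: 12 of the 305 libraries of the series, 6 labelled Col-0 with EV at 0.5 h and 6 labelled Col-0 at T0. Each replicate number occurs on 2 libraries of either group, whose counts were summed, so n = 3 on each side. The plants were 6 weeks old and had grown under short days with 8 h of light at 21 °C and 16 h of dark at 18 °C. The material was leaf discs. By the design text the bacterium was Pf0-1, a non-pathogenic Pseudomonas strain engineered to inject effector proteins, here with no effector to inject. The protocol in the labels names strains of another species for growth curves only, which leaves the infiltrated strain unchecked on that side. No group was infiltrated with buffer alone, so handling, fluid, bacterium and the time since T0 cannot be told apart. The other genotypes used below are nrg1 (the double mutant nrg1.1 nrg1.2), adr1 (the adr1 triple mutant) and helperless, a line lacking both families of helper immune receptors, each with its own T0 and EV groups.

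Plant cells perceive conserved bacterial molecules and fragments of their own damaged tissue through receptor kinases at the cell surface. Within minutes calcium enters the cell, NADPH oxidase releases reactive oxygen and MAP kinases are switched on, and the transcripts of immediate early genes then accumulate. Touch and wounding set off an overlapping set of such genes, and growth genes that answer to auxin, light and gibberellin are commonly turned down in the same period.

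The 6 replicates held between 9642031 and 16467143 counts, and 19687 genes were tested. Of these, 2748 rose (14.0%) and 1693 fell (8.6%) at a Benjamini-Hochberg adjusted p under 0.05 in edgeR's quasi-likelihood test with a log2 change of at least 1. The median rise was 2.65 and the median fall was -1.67 on the log2 scale. Rises reached further: 396 genes rose by at least 5 on this scale, whereas 27 fell by as much. The genes that rose took 6.46 to 7.6% of all counts in the T0 replicates and 37.3 to 42.2% in the EV replicates. The 3 values of each group did not overlap for 2660 of the genes that rose and 1603 of those that fell, beside 47.5% of all genes tested. The number of falls depended on replicate 3. With it left out of the T0 and EV 0.5 h groups of all 4 genotypes, 919 genes fell and 2401 rose in Col-0. Without Col-0 EV replicate 3 alone 1392 fell, and without Col-0 T0 replicate 3 alone 1702 fell. EV replicate 3 lay farther from its partners, with a median absolute log2 difference of 0.329 and 0.341 over 13774 genes, whereas the first pair of EV replicates differed by 0.233 and T0 replicates by 0.213 to 0.229.

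The labelled genotype was checked by dividing ADR1-L1 by ADR1-L2 counts, a pair of helper receptor genes disrupted in the adr1 and helperless lines. The quotient lay between 1.51 and 3.67 in the 12 libraries compared here. In infiltrated leaves 10 libraries of the series went against their label, with 10 as the dividing value, and 0 of them were at 0.5 h. The quotient cannot tell Col-0 from nrg1 or adr1 from helperless, and T0 libraries were left out of this count.

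The balance of rises and falls also depended on how the libraries were scaled. Levels are in CPM (counts scaled to library size), using trimmed-mean (TMM) factors of 1.15 to 1.2 in T0 and 0.756 to 0.807 in EV replicates. With upper quartile factors the median of all genes moved by -0.29 on the log2 scale, and 2349 genes rose and 2940 fell. With total counts alone it moved by -0.588, and 2041 rose and 4903 fell. With the TMM scaling rises made up 61.9% of the calls, against 44.4% with upper quartile factors and 29.4% with total counts alone. With relative log expression (RLE) factors 2678 genes rose and 1848 fell, and with DESeq2 2760 rose and 1900 fell. Rises made up 59.2% of the calls in each of these. All changes below are relative to the TMM scaling, whose own median change was -0.035.

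**Figure D1:**
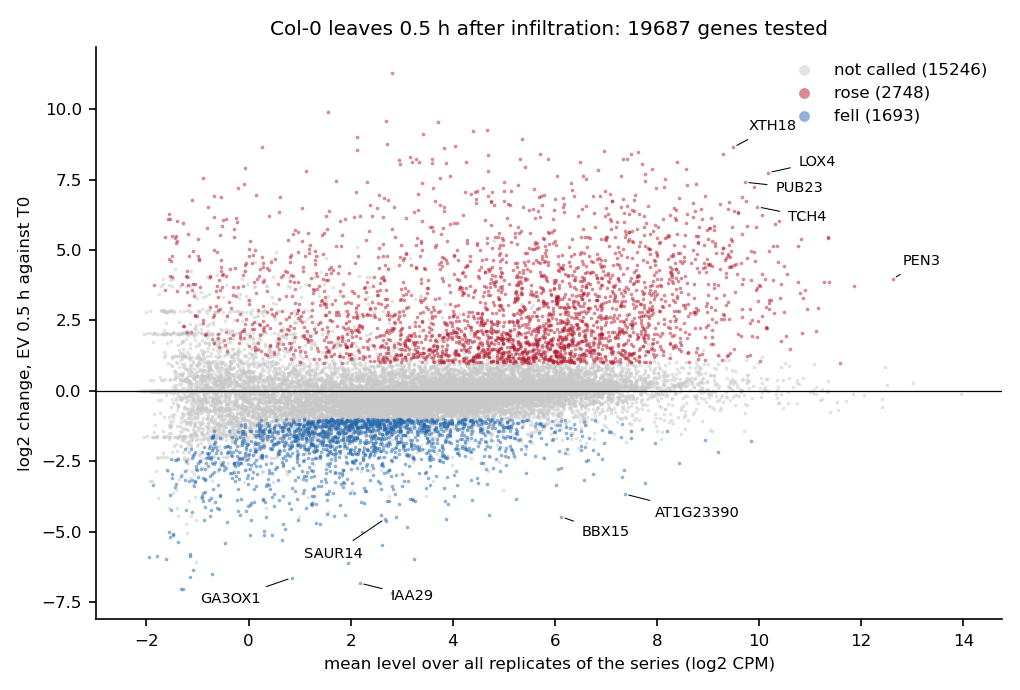
Log2 change from T0 to EV at 0.5 h (y axis) against the mean level over all replicates of the series in log2 CPM (x axis), 1 point per gene tested. The 2748 rises reach above 10 and are spread over all levels, whereas most of the 1693 falls lie between -1 and -5.

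Short promoter motifs were counted to describe what the responding genes share. The rapid stress response element CGCGTT, a motif bound by calmodulin-binding CAMTA factors, and the W box (TTGACC and, as its other form, TTGACT), bound by WRKY factors, were searched on both strands in 300 bases around each gene's start (250 before it and 50 from it on) in RefSeq TAIR10.1. A stress element that ends in the TT of a W box can overlap it. The 250 bases before the start are shown for XTH18 (chr4:14827212-14827461, minus strand) and LOX4 (chr1:27308263-27308512, plus strand), the pair among the 12 largest rises described below that held the stress element, for the immunity gene PUB23 (chr2:15084560-15084809, minus strand) and for SAUR14 (chr4:18125560-18125809, minus strand), the first of the 12 largest falls. The 4 were chosen after their values were seen. Each is written 5′ to 3′ along its gene with both motifs in capitals; a match on the other strand is marked where it lies.

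XTH18: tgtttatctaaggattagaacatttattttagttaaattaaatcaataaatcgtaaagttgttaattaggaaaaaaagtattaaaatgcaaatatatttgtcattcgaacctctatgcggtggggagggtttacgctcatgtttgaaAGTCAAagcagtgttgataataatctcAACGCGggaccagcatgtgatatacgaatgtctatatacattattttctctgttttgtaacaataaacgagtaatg
LOX4: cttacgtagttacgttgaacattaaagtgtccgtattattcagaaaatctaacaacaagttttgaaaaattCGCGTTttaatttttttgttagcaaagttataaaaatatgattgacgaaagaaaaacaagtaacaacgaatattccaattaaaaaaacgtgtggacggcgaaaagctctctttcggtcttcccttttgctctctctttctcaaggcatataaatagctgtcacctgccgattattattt
PUB23: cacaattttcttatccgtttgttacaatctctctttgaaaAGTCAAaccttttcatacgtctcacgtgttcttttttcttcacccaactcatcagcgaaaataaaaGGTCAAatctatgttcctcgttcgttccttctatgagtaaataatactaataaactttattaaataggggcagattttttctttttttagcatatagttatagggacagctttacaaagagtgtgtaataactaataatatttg
SAUR14: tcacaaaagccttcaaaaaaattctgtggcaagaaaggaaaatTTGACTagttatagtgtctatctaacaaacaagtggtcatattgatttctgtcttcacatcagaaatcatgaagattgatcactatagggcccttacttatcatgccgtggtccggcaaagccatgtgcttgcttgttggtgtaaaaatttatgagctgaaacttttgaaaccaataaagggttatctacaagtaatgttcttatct

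In these stretches XTH18 held 1 stress element and 1 W box, LOX4 held 1 stress element, PUB23 held 2 W boxes and SAUR14 held 1 W box. Of the 200 largest rises, 31 held the stress element (15.5%), beside 298 of all genes that rose (10.9%), 764 of all genes tested (3.9%), 20 of all genes that fell (1.18%) and 0 of the 200 largest falls. The W box followed the same order at its upper end, with 60.5% of the 200 largest rises, 48.9% of all that rose and 33.2% of all genes tested. It was found in 25.5% of the genes that fell and in 25.5% of the 200 largest falls. Of the other motifs, the GCC box GCCGCC was present in 5.0% of the largest rises, 0.5% of the largest falls and 2.68% of all genes tested, which is 10, 1 and 524 genes. The TGA box TGACG was present in 28.0%, 20.5% and 23.9%, and the DRE core CCGAC in 12.5%, 14.5% and 16.3%. The G box CACGTG was present in 10.5% of the largest rises and 6.0% of the largest falls, beside 8.85% of all genes tested, and the evening element AAAATATCT in 3.5% and 7.0%, beside 3.06%. Among the named lists the stress element was most frequent in secretion genes, at 3 of 9, and MAP kinase genes, at 3 of 17. These are counts of letters in a window, made without a test, and say nothing of whether a site is bound.

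**Figure D2:**
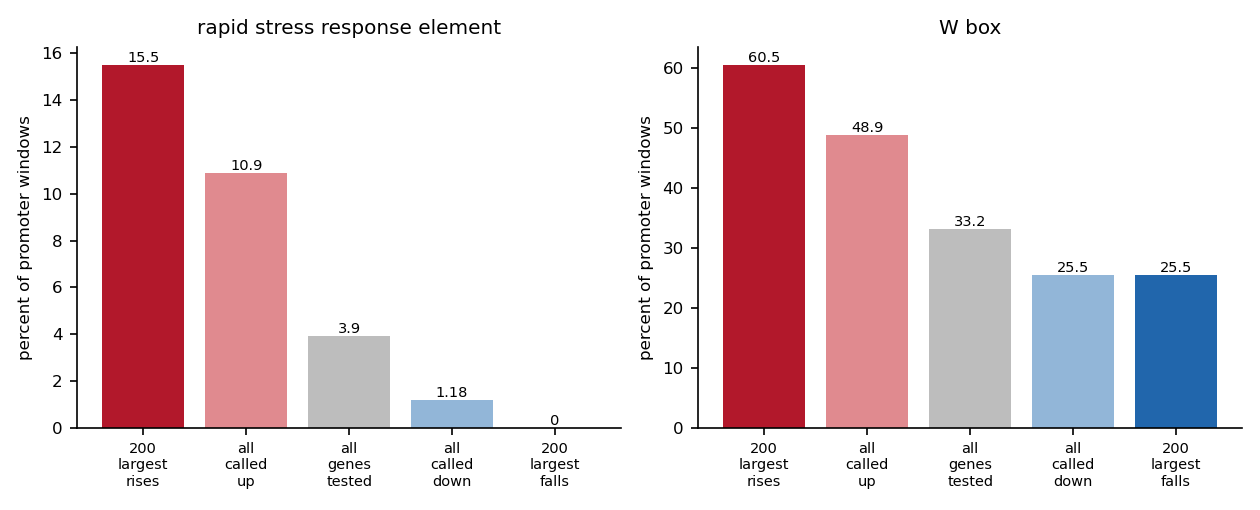
Share of promoter windows with at least 1 match (y axis, percent) to the rapid stress response element (left) and the W box (right) in 5 sets of genes. Both shares are highest in the 200 largest rises, at 15.5 and 60.5%, and the stress element has 0 matches in the 200 largest falls.

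Among called genes with at least 50 counts over the lower group and no overlap between groups, the 12 largest rises came from mean levels of 1.23 to 18.3 CPM at T0 to 243 to 3900 CPM at 0.5 h. XTH18, a xyloglucan endotransglucosylase that remodels the cell wall, had 3.85, 4.55 and 7.3 CPM at T0 and 1971, 2226 and 2078 CPM after infiltration. Its log2 change was 8.64 ± 0.82 (fitted change ± SE of the fit, 3 replicates a side, edgeR adjusted p = 2.29e-16), the largest change of the 12. All infiltrated leaves stood far above the T0 leaves, and they differed little among themselves. XTH23, of the same enzyme family, rose by 7.68 ± 0.87. LOX4, a lipoxygenase at the start of jasmonate synthesis, went from 31.6, 6.64 and 16.5 CPM to 3524, 4398 and 3780 CPM, a rise of 7.74 ± 0.68 (edgeR adjusted p = 5.97e-18). It reached the highest CPM of the 12, and its T0 replicates varied more than those of XTH18. PER4, a class III peroxidase of the cell wall, rose by 8.39 ± 0.97, and PP2-B13, an F-box protein related to phloem lectins, by 8.22 ± 1.07. CML37, a calmodulin-like calcium sensor, rose by 7.88 ± 0.86, and AT3G01830, annotated as an EF-hand calcium-binding protein, by 8.04 ± 0.63. A pair of transcription factors was among them, the zinc finger repressor ZAT11 at 8.4 ± 0.84 and TDR1, an ERF family factor also known as ERF98, at 7.63 ± 0.96. AT1G07160, annotated as a protein phosphatase 2C, rose by 8.46 ± 1.07. AT3G02840, annotated as an ARM repeat protein, rose by 8.13 ± 0.81 and AT3G55840, annotated as Hs1pro-1, by 7.86 ± 0.72.

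Some genes went from almost no counts to many. AT1G06135, annotated only as an uncharacterized protein, had 0 counts over the T0 group and 855 over the EV group. Against the 3 counts that a count of 0 allows over the group, it was at least 401-fold higher. DMP1, a membrane protein gene, had 3 and 1625 counts, and AT4G04480, annotated as an F-box protein, had 3 and 1983. Their EV replicates were uneven: AT4G04480 had 5.39, 132 and 38.3 CPM.

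The 12 largest falls came from mean levels of 23.7 to 304 CPM at T0 to 1.71 to 17.9 CPM at 0.5 h. SAUR14, a small auxin-up RNA gene of the kind that promotes cell expansion, had 48.6, 48.5 and 47.6 CPM at T0 and 1.16, 4.26 and 0.53 CPM after infiltration. It fell by 4.53 on the log2 scale (SE 1.02, edgeR adjusted p = 0.000189). The T0 leaves were nearly equal and all infiltrated leaves were lower, with replicate 2 the highest of them. BBX15, a B-box zinc finger factor of the light-signalling family, went from 311, 240 and 360 CPM to 19.7, 13.5 and 8.08 CPM, a change of -4.46 ± 0.93 (edgeR adjusted p = 5.09e-05). SAUR6 changed by -4.38 ± 1.06, and HAT2, a homeodomain-leucine zipper factor induced by auxin, by -3.87 ± 0.59. MAKR6, annotated as a membrane-associated kinase regulator, changed by -4.01 ± 0.95 and RTFL16, a small peptide gene of the ROTUNDIFOLIA-like family, by -3.89 ± 0.8. AT1G18810, annotated as similar to phytochrome kinase substrate, changed by -3.54 ± 0.67. AT1G23390, an F-box protein gene with Kelch repeats, changed by -3.66 ± 0.53. The zinc finger genes ATCTH and AT5G54630 changed by -3.84 ± 0.91 and -3.88 ± 0.83. EXPA8, an expansin, changed by -3.82 ± 1.23 and XTH31, a wall enzyme, by -3.63 ± 1.11, but neither call was firm. EXPA8 did not pass without replicate 2 (-3.92) or replicate 3 (-3.34, edgeR adjusted p = 0.106), and XTH31 did not pass without replicate 3 (-1.97, edgeR adjusted p = 0.334).

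**Figure D3:**
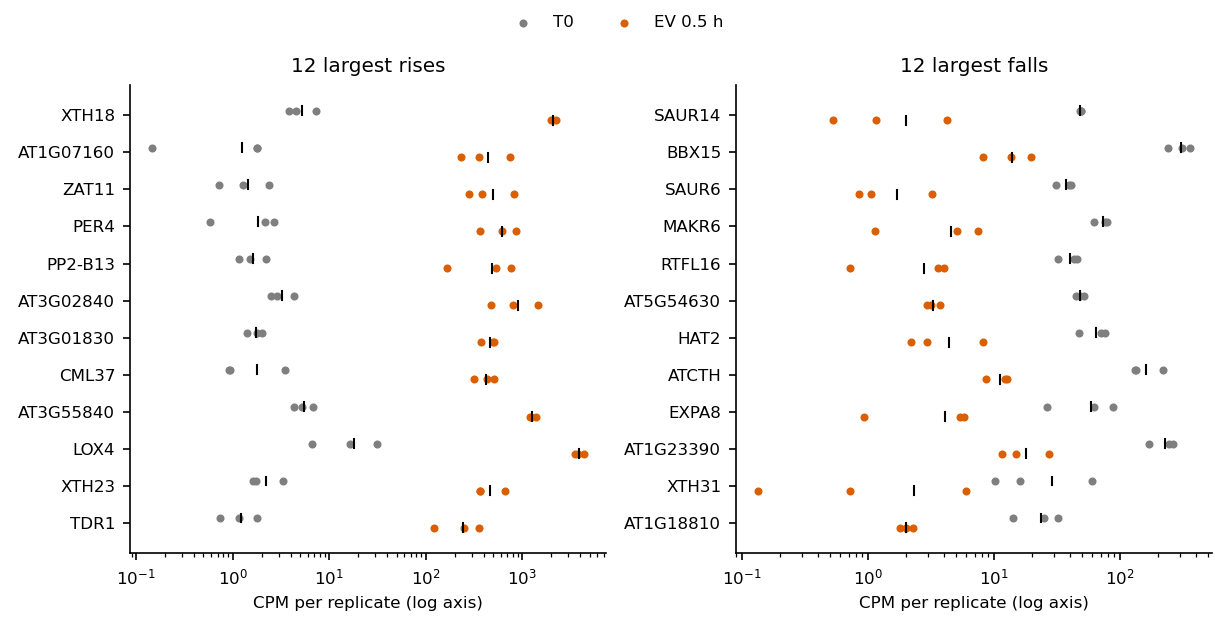
CPM of each replicate on a log axis (x axis) for the 12 largest rises (left) and falls (right), with T0 in grey and EV at 0.5 h in orange; short bars mark the means of n = 3. The groups are separate for each of the 24 genes, as the choice of genes required, and the gap is widest for XTH18.

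Counts in lists of genes are read against 14.0% up and 8.6% down over all genes tested, and list medians against -0.035. The lists were compiled from general knowledge, but with earlier results of these data known. A high share in a list can thus come in part from the choice of its members. No test was made of a list as a whole.

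Transcripts of cell-surface perception genes rose nearly throughout. Of 18 tested genes for pattern receptors, co-receptors and the oxidase they activate, 17 rose, and the median of the list was 3.11. RBOHD, the NADPH oxidase of the oxidative burst, had 75.8, 38.3 and 70.2 CPM at T0 and 1440, 1899 and 1579 CPM at 0.5 h, a rise of 4.74 ± 0.43 (edgeR adjusted p = 2.8e-17). PEPR1, the receptor for Pep danger peptides, went from 36.9, 21 and 28.3 CPM to 1080, 1413 and 1089 CPM, and rose by 5.38 ± 0.52. Neither gene's groups came near each other. PEPR2, the other Pep receptor, rose by 4.65 ± 0.57, and LYK5, the chitin receptor, by 5.46 ± 0.62. The flagellin receptor FLS2 rose by 2.93 ± 0.44 and the elongation factor Tu receptor EFR by 2.94 ± 0.32. PBL1, a receptor-like cytoplasmic kinase, changed by 0.95. These 3 were chosen after their values were seen. Among the peptides such receptors read, 7 of 13 tested rose, with a median of 1.74. The Pep precursor PROPEP3 went from 20 to 1401 counts and rose by 6.63 ± 1.13. The phytosulfokine precursors PSK2 and PSK4, growth peptides that also act in immunity, rose by 4.57 ± 0.54 and 3.79 ± 0.47. Without EV replicate 3, 4 of the peptide genes rose, and PROPEP2, another Pep precursor, lost its call (2.46, edgeR adjusted p = 0.133, against 3.88 with it).

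Calcium and kinase genes followed. Of 18 tested calcium channel, pump and calcium-dependent kinase genes, 12 rose, with a median of 2.1. CPK28, a kinase that limits immune signalling, went from 39.8, 14.1 and 33.7 CPM to 1157, 1612 and 1213 CPM, a rise of 5.51 ± 0.44 (edgeR adjusted p = 5.61e-20). Every EV value was above every T0 value. The glutamate receptor-like channel genes GLR2.9 and GLR2.8 rose by 6.98 ± 1.4 and 6.15 ± 0.83, and the cyclic nucleotide-gated channel gene CNGC19 by 4.79 ± 0.79. GLR2.9 had only 4 counts over the T0 group. Of 17 genes of the MAP kinase cascade and its phosphatases, 9 rose, with a median of 2.13. MPK3, a kinase activated by pattern receptors, had 99.1, 66.2 and 89.9 CPM at T0 and 1825, 2376 and 1218 CPM at 0.5 h, and rose by 4.41 ± 0.45. MPK11 rose by 6.74 ± 0.71, the phosphatase gene AP2C1, whose product dampens MAP kinases, by 6.01 ± 0.57, and the MPK4 substrate gene MKS1 by 4.09 ± 0.37.

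Of 14 tested touch and calmodulin-like genes 10 rose, with a median of 3.36. TCH4, a xyloglucan endotransglucosylase named for its induction by touch, had 31, 40.9 and 20.9 CPM at T0 and 3169, 3493 and 1935 CPM at 0.5 h, and rose by 6.53 ± 0.72 (edgeR adjusted p = 3.49e-13). EV replicate 3 was the lowest of the infiltrated leaves and still far above T0. CML38 and CML42, calmodulin-like sensors, rose by 6.26 ± 0.61 and 4.86 ± 0.59. Of 3 tested CAMTA genes, CAMTA3, a calmodulin-binding factor that represses immunity, went from 71.6, 50.9 and 56 CPM to 360, 420 and 339 CPM, a rise of 2.65 ± 0.27. CAMTA1 and CAMTA2 had log2 changes of 0.01 and 0.32.

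Among transcription factor families the ZAT and ERF lists moved furthest. All 8 tested ZAT and AZF zinc finger genes rose, with a median of 5.1 and a lowest change of 3.17. ZAT7, ZAT10 and AZF1 rose by 7.82 ± 0.9, 6.15 ± 0.53 and 5.36 ± 0.75. Of 23 tested ERF, DREB and CBF genes, 18 rose, with a median of 3.9. ERF109, a factor induced by reactive oxygen and wounding, had 6.31, 1.6 and 3.37 CPM at T0 and 591, 965 and 405 CPM at 0.5 h, a rise of 7.44 ± 0.97. ERF13 and ERF11 rose by 6.95 ± 0.72 and 6.93 ± 0.65, and DDF1, a DREB factor that activates gibberellin breakdown, by 6.42 ± 1.13. Of 62 tested WRKY genes, 23 rose and 1 fell (3 without replicate 1). WRKY40, an early repressor of later defence genes, went from 19.7, 7.93 and 22.8 CPM to 1362, 2217 and 1643 CPM and rose by 6.69 ± 0.57. Its paralogue WRKY18 rose by 6.18 ± 0.5, WRKY22 by 6.67 ± 0.58 and WRKY30 by 7.62 ± 1.05. The WRKY family had a median of 1.37, lower than in the ZAT and ERF families.

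Of 35 tested PUB and ATL ubiquitin ligase genes, 19 rose and 3 fell. Without replicate 2, 5 of them fell. PUB23, a U-box ligase that dampens immunity, had 13.2, 9.22 and 9.02 CPM at T0 and 1429, 2138 and 1767 CPM at 0.5 h, a rise of 7.41 ± 0.58 (edgeR adjusted p = 3.23e-20). Its close relative PUB22 rose by 6.48 ± 0.57, ATL31 by 6.41 ± 0.68 and CMPG1, a U-box ligase induced by elicitors, by 5.67 ± 0.44. Of 9 genes for secretion and callose, 7 rose, with a median of 3.81. The syntaxin gene SYP122 had 33.4, 14.3 and 31.2 CPM at T0 and 1213, 1851 and 1377 CPM at 0.5 h, and rose by 5.82 ± 0.55. PEN1, a syntaxin of papilla formation, rose by 4.38 ± 0.4, and the exocyst subunit genes EXO70B2 and EXO70B1 by 4.99 ± 0.49 and 3.83 ± 0.33.

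Genes for jasmonate synthesis, for its JAZ repressors and for its breakdown rose in the same leaves. Of 15 tested synthesis genes, 11 rose, with a median of 2.57. LOX3, a lipoxygenase like LOX4, had 50.2, 20.4 and 40 CPM at T0 and 2890, 2578 and 3238 CPM at 0.5 h, a rise of 6.3 ± 0.64. The allene oxide cyclase gene AOC3 and the reductase gene OPR3, which act next, rose by 6.57 ± 0.64 and 4.69 ± 0.51. Of 11 tested JAZ repressor genes, 8 rose. JAZ8 went from 0.508, 0.246 and 0.645 CPM to 88.7, 120 and 137 CPM, that is from 20 to 3369 counts, and rose by 7.94 ± 0.73 (edgeR adjusted p = 7.66e-17). JAZ7, JAZ1 and JAZ5 rose by 6.05 ± 0.74, 5.58 ± 0.53 and 5.43 ± 0.47. Of 6 breakdown genes 5 rose, among them the hydroxylase genes CYP94C1 at 4.46 ± 0.65, CYP94B3 at 3.85 ± 0.87 and CYP94B1 at 3.59 ± 0.99, and the hydrolase gene ILL6 at 3.12 ± 0.57. Among 9 output genes 3 rose and 1 fell (2 without T0 replicate 2). The factor genes ANAC055 and MYC2 rose by 4.77 ± 0.71 and 2.27 ± 0.33, and MYC4, a relative of MYC2, fell by 2.97 (SE 0.5). ANAC019, the third that rose, by 2.6 ± 0.73, did not pass without replicate 3 (2.05, edgeR adjusted p = 0.0872). The T0 leaves differed in this pathway: the synthesis genes summed to 3490, 605 and 1023 CPM in T0 replicates 1 to 3, and to between 12560 and 14850 CPM in the EV replicates.

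Of 20 tested genes of the salicylic acid pathway 11 rose, with a median of 1.93. GRX480, a glutaredoxin, rose by 7.15 ± 0.79, NIMIN2, an NPR1-interacting protein gene, by 5.19 ± 0.74, and CBP60G, a calmodulin-binding activator of salicylic acid synthesis, by 4.88 ± 0.54. NPR3, a salicylic acid receptor gene, had 23.2, 24.4 and 28.1 CPM at T0 and 646, 771 and 627 CPM at 0.5 h, and rose by 4.75 ± 0.41. ICS1, which encodes the synthesis enzyme itself, had 13.6, 19.6 and 13.3 CPM at T0 and 35.9, 30.5 and 26.6 CPM at 0.5 h, a change of 1 ± 0.56 (edgeR adjusted p = 0.177). Its groups did not overlap, and, fitted on the compared groups alone it passed (1.04, edgeR adjusted p = 0.00738). PR1, the usual late marker, had 1 count over each group. Of 3 tested genes of the N-hydroxypipecolic acid pathway none was called as a rise, though the median of the list was 1.76. Levels were near the floor, with a sum of 0.482 to 2.25 CPM in the EV replicates. UGT76B1, which conjugates N-hydroxypipecolic acid, fell by 2.54 (SE 0.97) with overlapping groups. T0 replicate 3 stood apart, at 13.1 CPM beside 0.363 and 2.03 CPM in the others. Without that replicate the change was -0.53 (edgeR adjusted p = 0.79).

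In the list of camalexin and indole glucosinolates 7 of 12 rose, with a median of 2.23. PEN3, a transporter of these compounds at the plasma membrane, had 869, 483 and 916 CPM at T0 and 9915, 12270 and 13230 CPM at 0.5 h, a rise of 3.97 ± 0.39. It held 346356 counts over the EV group. The myrosinase gene PEN2, the hydroxylase gene CYP81F2 and the regulator MYB51 rose by 3.71 ± 0.42, 4.62 ± 0.76 and 4.04 ± 0.56. CYP71A13, a camalexin synthesis gene chosen after its values were seen, fell by 2.48 (SE 0.99, edgeR adjusted p = 0.0455), a call lost without any 1 of the 3 replicate numbers. Of 12 tested genes for tryptophan and phenylpropanoid synthesis 3 rose: the anthranilate synthase gene ASB1 at 3.73 ± 0.55, the phenylalanine ammonia-lyase gene PAL2 at 2.25 ± 0.42, and ASA1 at 1.28 ± 0.48. ASA1 did not pass without any 1 of the 3 replicate numbers.

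Members of the ethylene, abscisic acid and cytokinin lists moved both ways or in small number. Of 20 tested ethylene genes 5 rose and 4 fell, and ACC synthase genes were among both. ACS6 rose by 4.02 ± 0.49, and ACS7 by 6.22 ± 1.27 from 10 counts. ACS4 fell by 3.82 (SE 0.95), and ACS5 went from 28 counts to 0, at least 6.42-fold lower against 3 counts. The call of ACS5 was lost with DESeq2 (adjusted p = 0.235) and without replicate 1 (edgeR adjusted p = 0.0951). Without T0 replicate 2, 2 of the ethylene genes fell. Of 16 tested abscisic acid genes 3 rose: the breakdown genes CYP707A3 at 5.64 ± 0.68 and CYP707A1 at 2.77 ± 0.67, and the phosphatase gene HAI1 at 4.03 ± 0.81. CYP707A1 did not pass without replicate 2 (1.98, edgeR adjusted p = 0.0649). None of the list was called as a fall, but 2 were without T0 replicate 2 and with upper quartile or total count scaling, and 1 without EV replicate 3. Of 16 tested cytokinin genes 5 fell and 3 rose. The response regulator genes ARR9 and ARR8 fell by 2.66 (SE 0.45) and 2.27 (SE 0.4), and CKX4, a cytokinin oxidase gene, rose by 3.64 ± 0.56. Without replicate 3, 3 of these genes fell and 1 rose, and without T0 replicate 1, 3 fell.

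The SAUR family had the lowest median of the lists. Of 48 tested SAUR genes 29 fell and 5 rose, with a median of -2.56. SAUR16 had 58.9, 47.1 and 52.1 CPM at T0 and 0, 0.804 and 0.133 CPM at 0.5 h, that is 2304 and 11 counts, a change of -7.17 ± 1.52 (edgeR adjusted p = 6.5e-05). It was all but gone in each infiltrated leaf. SAUR23 went from 424 to 7 counts and SAUR51 from 29 to 0. SAUR48 went the other way, from 7 to 244 counts, with a rise of 5.52 ± 0.89. Without replicate 3, 21 SAUR genes fell, and without replicate 1, 3 rose. Reads shared between near-identical SAUR copies may have been split among them. Of 34 tested Aux/IAA and GH3 genes 5 fell and 3 rose. IAA29, a repressor of auxin response induced by shade and auxin, had 60.4, 18.3 and 18.1 CPM at T0 and 0.634, 0.0804 and 0.133 CPM at 0.5 h, and fell by 6.81 (SE 1.4). IAA4 and IAA1 fell by 3.43 (SE 0.65) and 3.18 (SE 0.63). IAA3 changed by -2.01 ± 0.79 and did not pass without replicate 2 or 3. Without T0 replicate 1, 3 genes of this list fell, and without EV replicate 3, 0 rose (1 without replicate 1 or replicate 3).

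Of 13 tested genes for gibberellin and brassinosteroid metabolism 7 fell and 2 rose, with a median of -1.4 (-1.38 with a gene at 0 counts set at its bound). GA3OX1, which makes active gibberellin, had 17.56, 14.82 and 10.46 CPM at T0 and 0.211, 0.161 and 0 CPM at 0.5 h, that is 629 and 4 counts, a change of -6.62 ± 1.3 (edgeR adjusted p = 1.6e-05). GA20OX1, which acts before it, went from 182 counts to 1. GA2OX6, which inactivates gibberellin, had 27.2, 16.1 and 48.1 CPM at T0 and 606, 634 and 1020 CPM at 0.5 h, and rose by 4.63 ± 0.5 (edgeR adjusted p = 1.07e-13). Both synthesis genes were near 0 in the leaves in which the inactivating gene was high. BR6OX2, a brassinosteroid synthesis gene, fell by 4.47 (SE 1).

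Wall-loosening genes divided between rises and falls. Of 41 tested XTH and expansin genes 9 rose and 9 fell, with a median of -0.17. The rises were led by XTH18, XTH23 and XTH19, the last at 7.31 ± 0.97, and by EXPA2, which went from 0 to 81 counts, at least 38.7-fold higher against 3 counts. Without replicate 3, 4 of these genes fell and 7 rose. Of 42 tested light and shade factor genes 12 fell and 2 rose, with a median of -0.7. BBX32, which antagonises light-signalling B-box factors, rose by 4.52 ± 0.7 while BBX15 fell. HFR1 and PAR1, which restrain shade elongation, changed by -3.64 ± 1.13 and -3.88 ± 1.24. HFR1 did not pass without replicate 1 (-2.81) or replicate 3 (-3.38), nor PAR1 without replicate 1 (-3.73). Without replicate 1 or replicate 3, 7 of the light and shade genes fell, and without EV replicate 3, 1 rose.

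**Figure D4:**
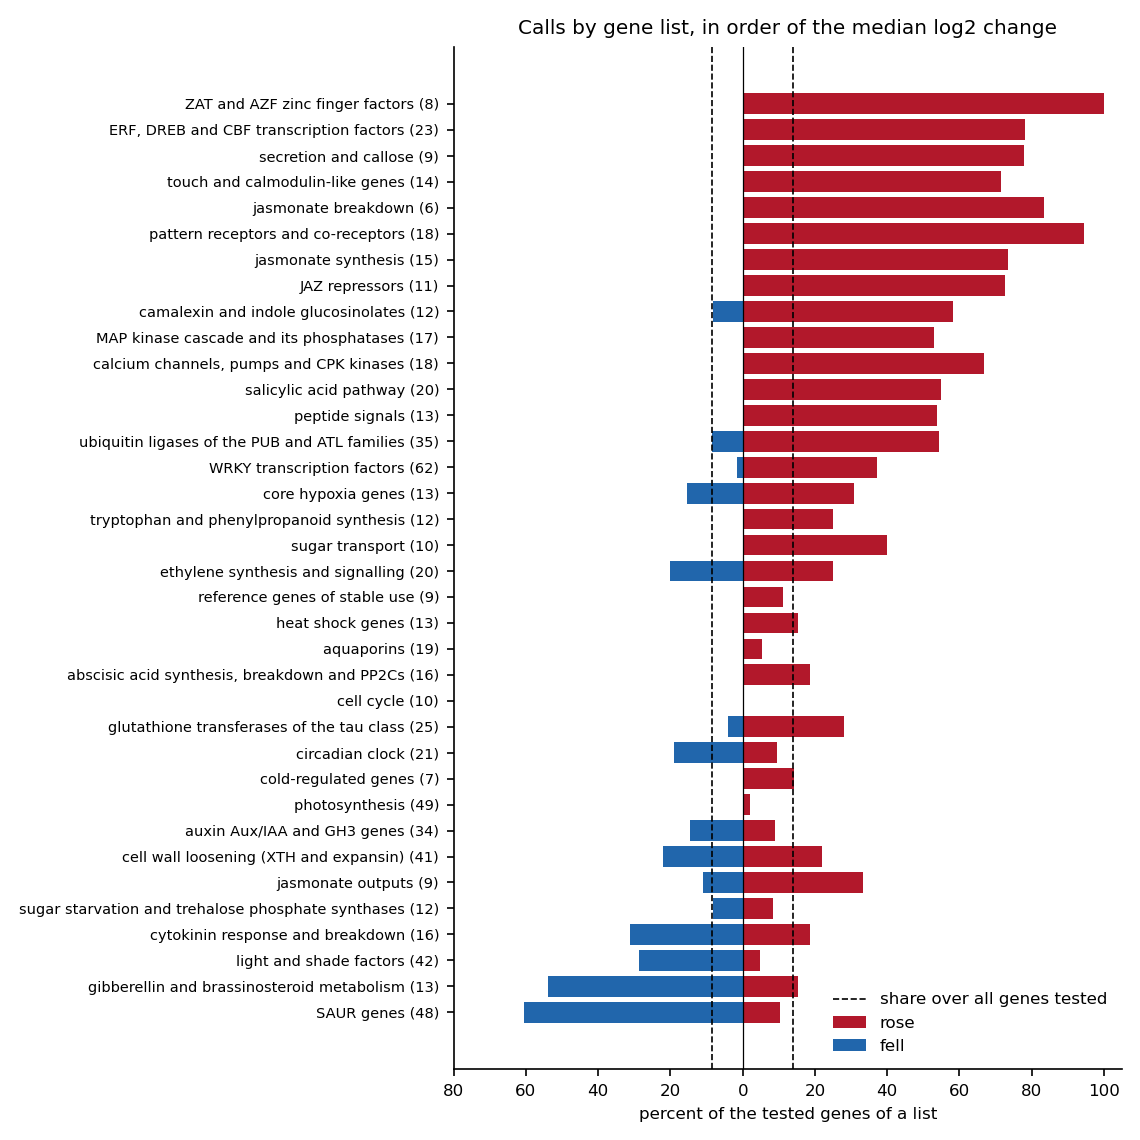
Percent of the tested genes of each list that rose (right, red) or fell (left, blue) at 0.5 h against T0, in order of the list's median log2 change, with the number tested in parentheses; lists with under 5 tested genes are left out. The dashed lines mark 14.0% up and 8.6% down over all genes tested; all 8 ZAT and AZF genes rose and 29 of 48 SAUR genes fell.

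Photosynthesis, cell cycle and aquaporin genes gave few calls. Of 49 tested photosynthesis genes 1 was called, LHCB4.3, a light-harvesting gene, at 1.19 ± 0.39, and not without replicate 1 (0.58). The list summed to 214500 to 224000 CPM at T0 and 191500 to 215200 CPM at 0.5 h. Of 10 cell cycle genes 0 were called, and CYCB1;1, a mitotic cyclin gene, changed by 0.96. Of 19 aquaporin genes 1 rose, TIP3;1, from 9 to 35 counts, which did not pass without replicate 2. Of 21 clock genes 4 fell and 2 rose. TOC1, an evening clock repressor, had 9, 7.38 and 7.45 CPM at T0 and 40.2, 60.6 and 67.3 CPM at 0.5 h, a rise of 2.82 ± 0.31 (edgeR adjusted p = 4.71e-13), and ELF3 fell by 1.72 (SE 0.34). CCA1, the morning clock gene, had 150, 409 and 306 CPM and 339, 520 and 344 CPM, with overlapping groups and a change of 0.48 ± 0.72. Without replicate 2, 1 clock gene rose, and without replicate 3, 1 fell; PRR9 was among those lost (-1.68 with it, -1.23 without, edgeR adjusted p = 0.276).

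Several calls in the heat, cold, hypoxia and sugar lists were lost with a replicate left out. Of 13 heat shock genes 2 rose, the repressor-type factor genes HSFB2A at 2.81 ± 0.35 and HSFB2B at 1.09 ± 0.34, and HSFB2B did not pass without replicate 1 or 2. Of 7 cold-regulated genes 1 rose, the dehydrin gene ERD10 at 2.45 ± 0.75, which did not pass without replicate 1 or 3. Of 13 core hypoxia genes 4 rose and 2 fell. SRO5 rose by 6.36 ± 0.76, whereas ADH1, the alcohol dehydrogenase gene of oxygen shortage, changed by -1.78 ± 0.63 with overlapping groups, and by -0.75 without T0 replicate 3 (edgeR adjusted p = 0.468). Without EV replicate 3, 1 hypoxia gene rose (2 without replicate 1), and without replicate 2 or 3, 1 fell. Of 25 tau class glutathione transferase genes 7 rose and 1 fell, with GSTU11 at 4.05 ± 0.86 and GSTU6 at 2.67 ± 0.66, and 4 rose without replicate 2 or replicate 3. Without replicate 3, 0 of them fell, and without replicate 1, 2 did. Of 12 genes of sugar starvation and trehalose phosphate synthases 1 rose, TPS7 at 1.86 ± 0.18, and 1 fell, TPS10 by 1.44 (SE 0.45), a call lost without replicate 2 or 3 (2 fell without T0 replicate 3). Of 10 sugar transport genes 4 rose, 2 of them without any 1 replicate number: the transporter genes STP4 at 2.03 ± 0.42 and ERDL6 at 1.22 ± 0.3, and STP13 and CWINV1, whose groups overlapped.

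Mesophyll markers were abundant in both groups. The 9 mesophyll markers summed to 79780 to 87280 CPM at T0 and 84230 to 91510 CPM at 0.5 h, with 0 called. Of 7 tested epidermis and trichome markers 0 were called, and their sum was 784 to 1457 CPM at T0 and 468 to 848 CPM at 0.5 h. GL1, a trichome regulator, was at 0 in all 6 replicates. Of 10 vascular markers 1 fell, ATHB8 by 1.22 (SE 0.35), a call lost without replicate 3, and SULTR1;3, a companion cell marker, was at 0. Of 9 guard cell markers ALMT12, an anion channel gene, rose by 1.83 ± 0.48, and MYB60 and EPF1 fell by 1.52 (SE 0.34) and 2.05 (SE 0.75). Without replicate 3 only MYB60 fell among them. Their sum was 53.4 to 91.9 CPM at T0 and 49 to 57.5 CPM at 0.5 h, and the part of cell type proportions in the results was not tested. In leaf discs, fewer cells of a type and less RNA per cell cannot be told apart. Of 9 genes often used as references 1 was called, the polyubiquitin gene UBQ10 at 1.01 ± 0.31 with overlapping groups, and it was not called with relative log expression, upper quartile or total count scaling. ACT2, an actin gene, had 644, 673 and 632 CPM at T0 and 969, 1262 and 1012 CPM at 0.5 h, a change of 0.73 ± 0.19 (edgeR adjusted p = 0.00116) that is under the threshold of size.

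Levels at the later EV times of the same genotype set the 0.5 h values in context; a test of them would reuse the same T0 samples, and none was made. The 12 largest rises had mean levels of 2.63 to 220 CPM at 4 h and 0.711 to 159 CPM at 8 h. XTH18 stood at 99 ± 32 CPM at 4 h (SD, n = 3), beside 2092 ± 128 at 0.5 h, and LOX4 at 124 ± 27.7 beside 3901 ± 450 CPM. TDR1 was back at 2.63 ± 0.83 CPM, beside 1.23 ± 0.53 at T0. PER4 and PUB23 were higher, at 220 ± 18.3 and 592 ± 165 CPM. The falls split more widely. SAUR14 was still at 1.17 ± 0.46 CPM at 4 h, whereas AT1G23390 was at 225 ± 28.6 CPM, the level it had at T0 (225 ± 49.3).

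FRK1, a receptor kinase gene used as a marker of pattern-triggered immunity, behaved unlike the early genes. It had 3.12, 10.6 and 5.51 CPM at T0, 1.9, 0.804 and 3.05 CPM at 0.5 h, and 2606, 1364 and 1231 CPM at 4 h. It fell by 1.78 (SE 0.69, edgeR adjusted p = 0.0398) at 0.5 h, a call lost without replicate 2 (-0.97, edgeR adjusted p = 0.421), and was among the abundant transcripts only later. The sugar transporter gene STP13 and the invertase gene CWINV1 were likewise at 119 ± 82.3 and 130 ± 75 CPM at 0.5 h and at 2016 ± 143 and 1370 ± 60.9 CPM at 4 h. At 8 h both libraries of replicate 3 went against their genotype label, with that quotient over 10. Without that replicate the 8 h values of XTH18 were 36.6 and 15.8 CPM, and with it the third was 65.3 CPM.

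**Figure D5:**
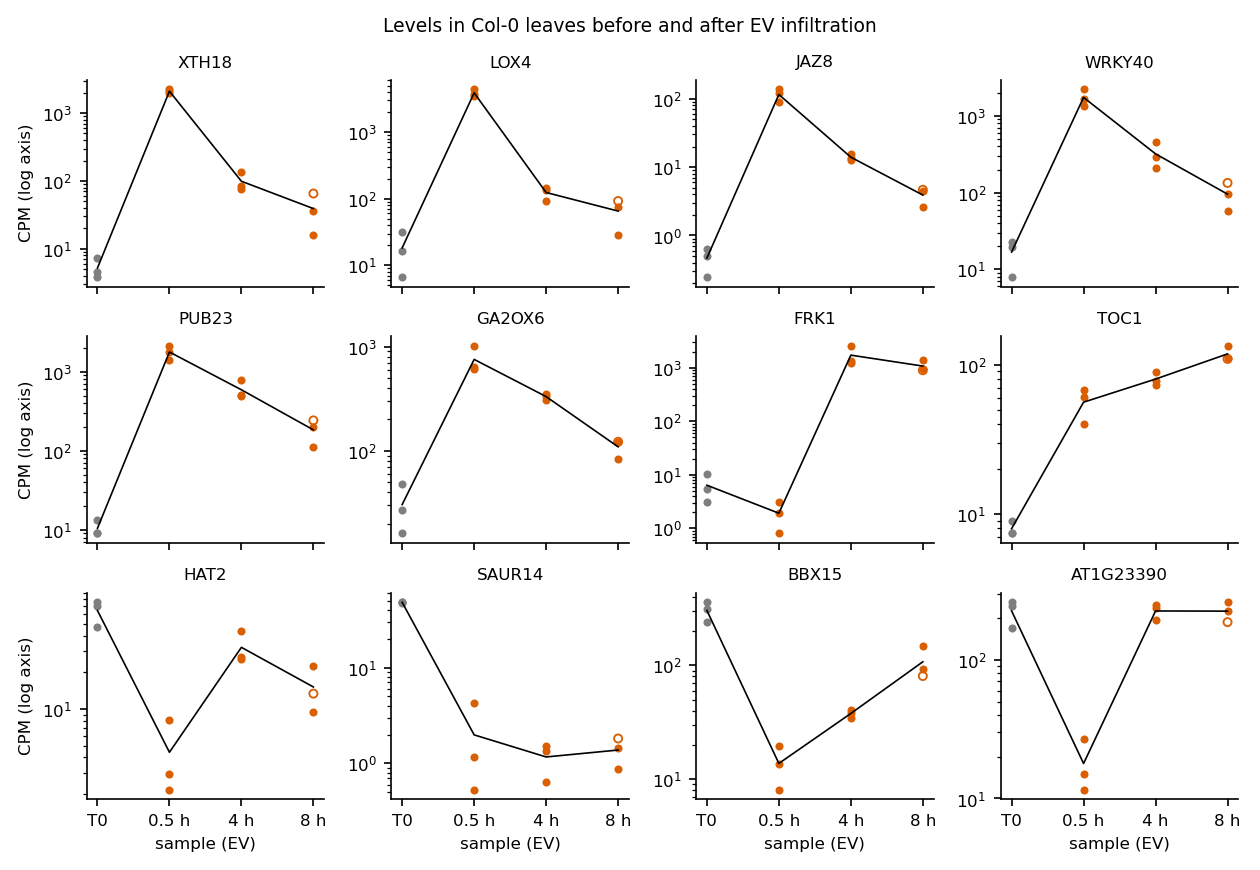
CPM on a log axis (y axis) of 12 genes in Col-0 leaves at T0 and 0.5, 4 and 8 h after EV infiltration (x axis, not to scale in time), with points for replicates and a line through the means of n = 3; the open point at 8 h is the replicate whose libraries go against their genotype label. XTH18, LOX4 and JAZ8 are highest at 0.5 h, FRK1 at 4 h, and AT1G23390 is low only at 0.5 h among the 4 samplings.

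Some of the same genes can be read in leaves given the bacterium with an effector for 0.5 h, as levels alone. XTH18 was at 1636 ± 919 CPM with AvrRps4, 2133 ± 425 with AvrRpt2 and 1985 ± 911 with AvrRpm1 (SD, n = 3), beside 2092 ± 128 with EV. SAUR14 was at 15.5 ± 14.4, 3.83 ± 3.78 and 3.86 ± 3.24 CPM, beside 1.98 ± 2 with EV. For this pair the spread over replicates was as wide as the distance between the means. Other falls stood higher with AvrRps4: AT1G23390 was at 65.7 ± 28.8 CPM, beside 17.9 ± 8.14 with EV, and ATCTH at 41.2 ± 25.6, beside 11.2 ± 2.22. The median over the 12 falls was 13.3 CPM with AvrRps4, 5.54 with AvrRpt2, 5.99 with AvrRpm1 and 3.64 with EV, and no test was made. These genes were chosen for their low EV values, so higher levels in the other groups can come from the choice itself.

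The mutants, which have T0 and EV groups of their own, gave a separate reading of the response. In nrg1 2708 genes rose (13.8%) and 1321 fell (6.71%), in adr1 2428 rose (12.3%) and 1043 fell (5.3%), and in helperless 2434 rose (12.4%) and 1097 fell (5.57%). Of the 2748 genes that rose in Col-0, 89.5% also rose in nrg1, 81.9% in adr1 and 84.1% in helperless. These shared genes made up 90.8%, 92.7% and 95% of the genes that rose in each mutant. Of the 1693 genes that fell in Col-0, 62.6% also fell in nrg1, 49.9% in adr1 and 53.1% in helperless, and these were 80.2%, 81% and 82% of the mutants' own falls. Called or not, 99.4%, 98.6% and 99.4% of the 1693 genes had a negative log2 change in nrg1, adr1 and helperless. Their median changes were -1.42, -1.27 and -1.3, beside -1.67 in Col-0, where they were chosen. No gene was called in opposite directions in Col-0 and a mutant (0 in each). In all 4 genotypes, 2107 genes rose and 627 fell.

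Some lists had like counts in the mutants and others did not. The ZAT and AZF genes rose in 8 of 8 cases in each mutant, the pattern receptor list in 16 of 18 in nrg1, 18 in adr1 and 17 in helperless, and SAUR genes fell in 28, 26 and 29 of 48. Clock genes that fell numbered 3, 1 and 0 in nrg1, adr1 and helperless, beside 4 in Col-0, and sugar transport genes that rose numbered 4, 1 and 2, beside 4. Of the peptide genes 7, 7 and 4 rose, beside 7. The median of the jasmonate outputs was 2.8, 1.17 and 0.78, beside -0.28 in Col-0, and none of these differences between genotypes was tested. The 12 largest rises changed by 6.28 to 8.04 in nrg1, 5.33 to 6.19 in adr1 and 6.66 to 8.21 in helperless, beside 7.63 to 8.64 in Col-0, where they were chosen for their size. The adr1 T0 group was uneven: XTH18 had 10.6, 48.6 and 5.49 CPM there and 1367, 2274 and 1101 CPM at 0.5 h. The difference between adr1 and Col-0 in its response was -2.45 ± 0.85 and did not pass (edgeR adjusted p = 1). Across all genes, edgeR called 0 genes as different in response between Col-0 and nrg1, adr1 or helperless, and DESeq2 called 0, 2 and 2. Of the 19687 genes tested, 181, 392 and 161 had an unadjusted edgeR p under 0.05. With no difference at all a share near 0.05 would pass, and each of these counts is below it. The test of these differences was thus stricter than its nominal level, for a reason that was not tested. The small counts therefore do not show that the responses were equal. A typical difference had a standard error of 0.523 to 0.528 on the log2 scale, so differences of moderate size were not detectable with this fit, depth and n.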

How the data were processed

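Leaf RNA was captured with oligo(dT) and sequenced as 50-base single reads, per the labels' protocols. The submitters' processing notes name FastQC 0.11.7, Trimmomatic 0.36, HISAT2 2.1.0, the TAIR10 build and featureCounts from Subread. The deposited values are raw counts per gene made by the authors, 25320 genes in 305 libraries. The strand setting is not given in the sources used here, so overlapping and antisense genes cannot be told apart. Most replicate numbers have a second library of the same name, whose nature is not stated, and the pair was summed; adr1 T0 has 5 libraries in place of 6. The labels do not say whether replicates are separate plants. The p-values rest on the spread between replicates over all 52 groups, which may be technical.

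Counts of all 52 groups were fitted together with edgeR 4.0.16 (R 4.3.3, limma 3.58.1), with TMM factors, its expression filter and the quasi-likelihood test, so all groups share 1 estimate of the spread. Fits that leave out a replicate held the dispersion trend of the full fit. Where a replicate is named by number alone, it was left out of the T0 and EV 0.5 h groups of all 4 genotypes. Genes were called at a Benjamini-Hochberg adjusted p under 0.05 over all 19687 genes tested and an absolute log2 change of at least 1. The SE of a change is its absolute size divided by the square root of the test's F value. It thus rests on the spread shared by all groups, not on the compared samples alone. The steps were tested on simulated data. CPM values are counts scaled to library size with the TMM factors. A group at 0 was set at 3 counts for a bound, which covers counting error only. DESeq2 1.42.0, other scalings, no filter, single libraries, fewer groups, left-out replicates and a replicate block were the alternatives. Replicate numbers paired the samples in nrg1 (correlations of same-numbered deviations 0.28, 0.17 and 0.321 over 13774 genes) and adr1 (0.528, 0.378 and 0.456). That pairing comes from the data, not from the labels, and the block changed no count there by over 1.5 times. In helperless the same-numbered correlations were 0.137, 0.013 and 0.376. There T0 replicates 1 and 2 correlated best with EV replicates 2 and 3 (0.259 and 0.1), so a pairing in helperless is left undecided.

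The named genes are the 12 largest rises and falls under the rule in the text, up to 4 called members of each list with the largest change, a reference set, and the 3 genes with the most counts from 3 or fewer at T0. The members and lists were chosen with earlier results of these data known. Of the 844 listed genes, 827 were in the table, and 27 listed symbols were not found in the annotation. Gene names, annotations and promoters come from RefSeq TAIR10.1; 19571 of the genes tested had a promoter window.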

Additional observations from a re-analysis of the deposited data

How the results depend on the processing

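The number of rises in Col-0 stayed within 1.5 times of 2748 under every alternative run, from 2041 to 2773, and by leaving out 1 replicate it ranged from 2237 to 2614. The number of falls was less firm: 2940 with upper quartile factors, 4903 with total counts only, and 919 to 1838 over the fits that leave out a replicate, the lowest without replicate 3, where 847 of the 1693 falls were kept (50.0%). It was 2002 without the 10 libraries against their label, 2504 with unsummed libraries and 1303 with only the first library. Scaling by total counts only gave 6129 calls in nrg1 and 5398 in helperless, against 4029 and 3531. In adr1 leaving out 1 replicate gave 2296 (without replicate 2) to 3222 calls, against 3471. The difference between adr1 and Col-0 was called for 19 genes with unsummed libraries, 1 with only the T0 and 0.5 h groups, 1 with the replicate block on the compared groups, 2 without the 10 libraries against their label and 2 with DESeq2. Between helperless and Col-0 these were 1 with unsummed libraries, 1 with only the T0 and 0.5 h groups, 2 without the 10 libraries and 2 with DESeq2. The cause of these shifts was not tested. Same-numbered Col-0 samples correlated at 0.301, 0.078 and 0.178. For T0 replicates 1 and 3 this was the highest of their values, whereas T0 replicate 2 correlated best with EV replicate 3 (0.129). Whether the Col-0 samples were paired is left undecided. With the replicate block 2773 genes rose and 1789 fell in all groups, and 2595 and 1661 in the compared groups. Of 157 named genes, 123 kept their side of the threshold under each alternative that gave them a value; fits on fewer groups or single libraries gave none for some genes. No direction was reversed. Under upper quartile and total count scaling the medians of the ethylene, reference, heat, aquaporin, abscisic acid, cell cycle, tau glutathione transferase and vascular marker lists turned negative. Those of the CAMTA and mesophyll marker lists did so under total counts. With RLE factors the medians of the tau glutathione transferase and cell cycle lists were also negative, at -0.01 and -0.02. The clock median, 0.0 with TMM, was -0.03 with RLE, -0.28 with upper quartile factors and -0.58 with total counts.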
